A study of Mus musculus with 19 samples.

Results

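The 9 genes described here encode the receptors for interferon gamma (Ifngr1 and Ifngr2) and for the type I interferons (Ifnar1 and Ifnar2), the kinases Jak1 and Jak2, and Stat2, Irf1 and Socs1, which act downstream of those receptors. They were taken by gene symbol from the 2 deposited count tables. All 9 were present in both tables and all passed the filter on low counts, among 19932 genes tested of 51912 in the table of normal and NSCLC organoids and 14360 of 24421 in the table of sensitive and resistant organoids. The study sequenced bulk RNA from 19 libraries of mouse organoids, which are cell cultures grown in 3 dimensions. The first table holds organoids of normal lung (n = 3) and of non-small cell lung cancer (NSCLC, n = 4). The second holds NSCLC organoids labelled immunotherapy-sensitive (n = 3) and immunotherapy-resistant (n = 9), called sensitive and resistant here. No genotype, strain, driver mutation, treatment, dose, time or age is given for any group in the labels used here, and nothing says whether the libraries of a group came from separate animals or cultures. P-values therefore measure the spread between these libraries, which may be technical.

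Interferon gamma, the type II interferon, binds a receptor built from IFNGR1, the ligand-binding chain, and IFNGR2. JAK1 sits on IFNGR1 and JAK2 on IFNGR2, and together they lead to STAT dimers that bind GAS elements (gamma-activated sites) in promoters such as that of Irf1. Type I interferons bind IFNAR1 and IFNAR2, which carry TYK2 and JAK1. Their signal brings STAT2 together with IRF9 on interferon-stimulated response elements (ISREs). SOCS1 is induced by interferons and in turn inhibits the JAK kinases. In tumour cells this pathway controls genes of antigen presentation, which is why it is followed in work on immunotherapy.

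The 250 bases before the annotated start of each gene, from RefSeq on build GRCm38.p6, were searched on both strands for the GAS letters TTCNNNGAA and the ISRE core, which is GAAA, any 2 bases and GAAA again. Of 32851 such windows of the mouse genome, 7.02% held a GAS match and 2.98% an ISRE match. Among the 9 genes a match was present before Irf1 (GAS, 90 to 82 bases before the start), Stat2 (ISRE, 222 to 213 bases before), Socs1 (2 overlapping ISRE matches, 83 to 74 and 77 to 68 bases before) and Ifnar2 (GAS, 214 to 206 bases before). The windows of Ifngr1, Ifngr2, Ifnar1, Jak1 and Jak2 held neither set of letters, nor did the window of a second annotated start of Irf1. The windows of the 3 genes that encode transcription factors or feedback inhibitors are shown because they carry the letters the pathway's own factors are known to bind. Capitals mark the matches, and each sequence is written 5′ to 3′ on the gene's strand. The Irf1 window is chr11:53769764-53770013 on the plus strand, the Stat2 window chr10:128270248-128270497 on the plus strand and the Socs1 window chr16:10785537-10785786 on the minus strand.
Irf1: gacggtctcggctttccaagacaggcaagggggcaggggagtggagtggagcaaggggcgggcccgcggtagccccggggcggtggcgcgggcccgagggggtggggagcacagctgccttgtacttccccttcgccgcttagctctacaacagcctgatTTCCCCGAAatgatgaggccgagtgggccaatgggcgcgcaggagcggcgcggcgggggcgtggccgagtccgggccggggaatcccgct
Stat2: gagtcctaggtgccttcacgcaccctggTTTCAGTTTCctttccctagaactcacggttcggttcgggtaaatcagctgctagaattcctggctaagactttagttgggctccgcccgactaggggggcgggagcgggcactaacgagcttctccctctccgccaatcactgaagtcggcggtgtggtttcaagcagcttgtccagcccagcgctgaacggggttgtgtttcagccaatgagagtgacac
Socs1: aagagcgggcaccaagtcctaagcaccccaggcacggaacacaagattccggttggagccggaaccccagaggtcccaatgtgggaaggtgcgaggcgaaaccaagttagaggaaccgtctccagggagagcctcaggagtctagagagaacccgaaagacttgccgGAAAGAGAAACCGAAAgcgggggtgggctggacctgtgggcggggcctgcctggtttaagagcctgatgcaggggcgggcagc
A match is a description of these letters and was not tested for binding.

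The NSCLC libraries were the deepest, with 122967042 to 154479953 counts each, where normal libraries had 20138197 to 21060762, so depth went with the group in that table. The depth of resistant libraries, 11988677 to 24462955 counts, spanned that of sensitive libraries, 15292427 to 18716749 counts. Levels are given as CPM (read counts scaled to TMM-adjusted library totals), and since each table was scaled on its own, no level was compared across tables. Epithelial markers were present in all libraries, at 8794 to 13366 summed CPM over 5 markers in NSCLC and 294 to 2175 in resistant libraries. In the second table, resistant libraries 6, 8 and 9 stood apart by 433 to 805 Xist reads and 0 reads of 4 Y-linked genes, where the other 9 libraries held 1 to 9 Xist reads and 110 to 1047 Y-linked reads. In the first table the 3 normal libraries held 13706 to 15163 Xist reads and the 4 NSCLC libraries 7 to 26, so sex-linked expression and the NSCLC label cannot be told apart. In bulk libraries such as these, fewer cells of a type and less RNA per cell cannot be told apart either.

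NSCLC organoids held more Ifngr1 RNA than normal lung organoids, and resistant organoids held less Ifngr1 and less Jak2 RNA than sensitive organoids. The other member genes did not pass the test in either comparison. In NSCLC, 1 of 9 members was higher and 0 were lower at an adjusted p under 0.05, where 53.5% of all genes tested passed (28.5% higher and 25.0% lower). In resistant organoids, 0 of 9 were higher and 2 were lower, where 37.5% of all genes passed (19.3% higher and 18.2% lower). The members' shares in either direction, 11.1% and 22.2%, were below the 53.5% and 37.5% of all genes. In resistant organoids both calls were downward, and the share lower, 22.2%, was near the 18.2% of all genes. The count in NSCLC was 2 with DESeq2, which added Ifnar2, and 0 without normal library 1 or normal library 3. The count in resistant organoids was also 2 without resistant libraries 6, 8 and 9. The median log2 fold change of the 9 genes was 0.10 in NSCLC, against 0.11 over all genes tested, and -0.37 in resistant organoids, against 0.06. The groups did not overlap for 1 member in NSCLC (Ifnar2) and for 2 in resistant organoids (Ifngr1 and Jak2), where 59.4% and 31.3% of all genes had groups that did not overlap.

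**Figure D1:**
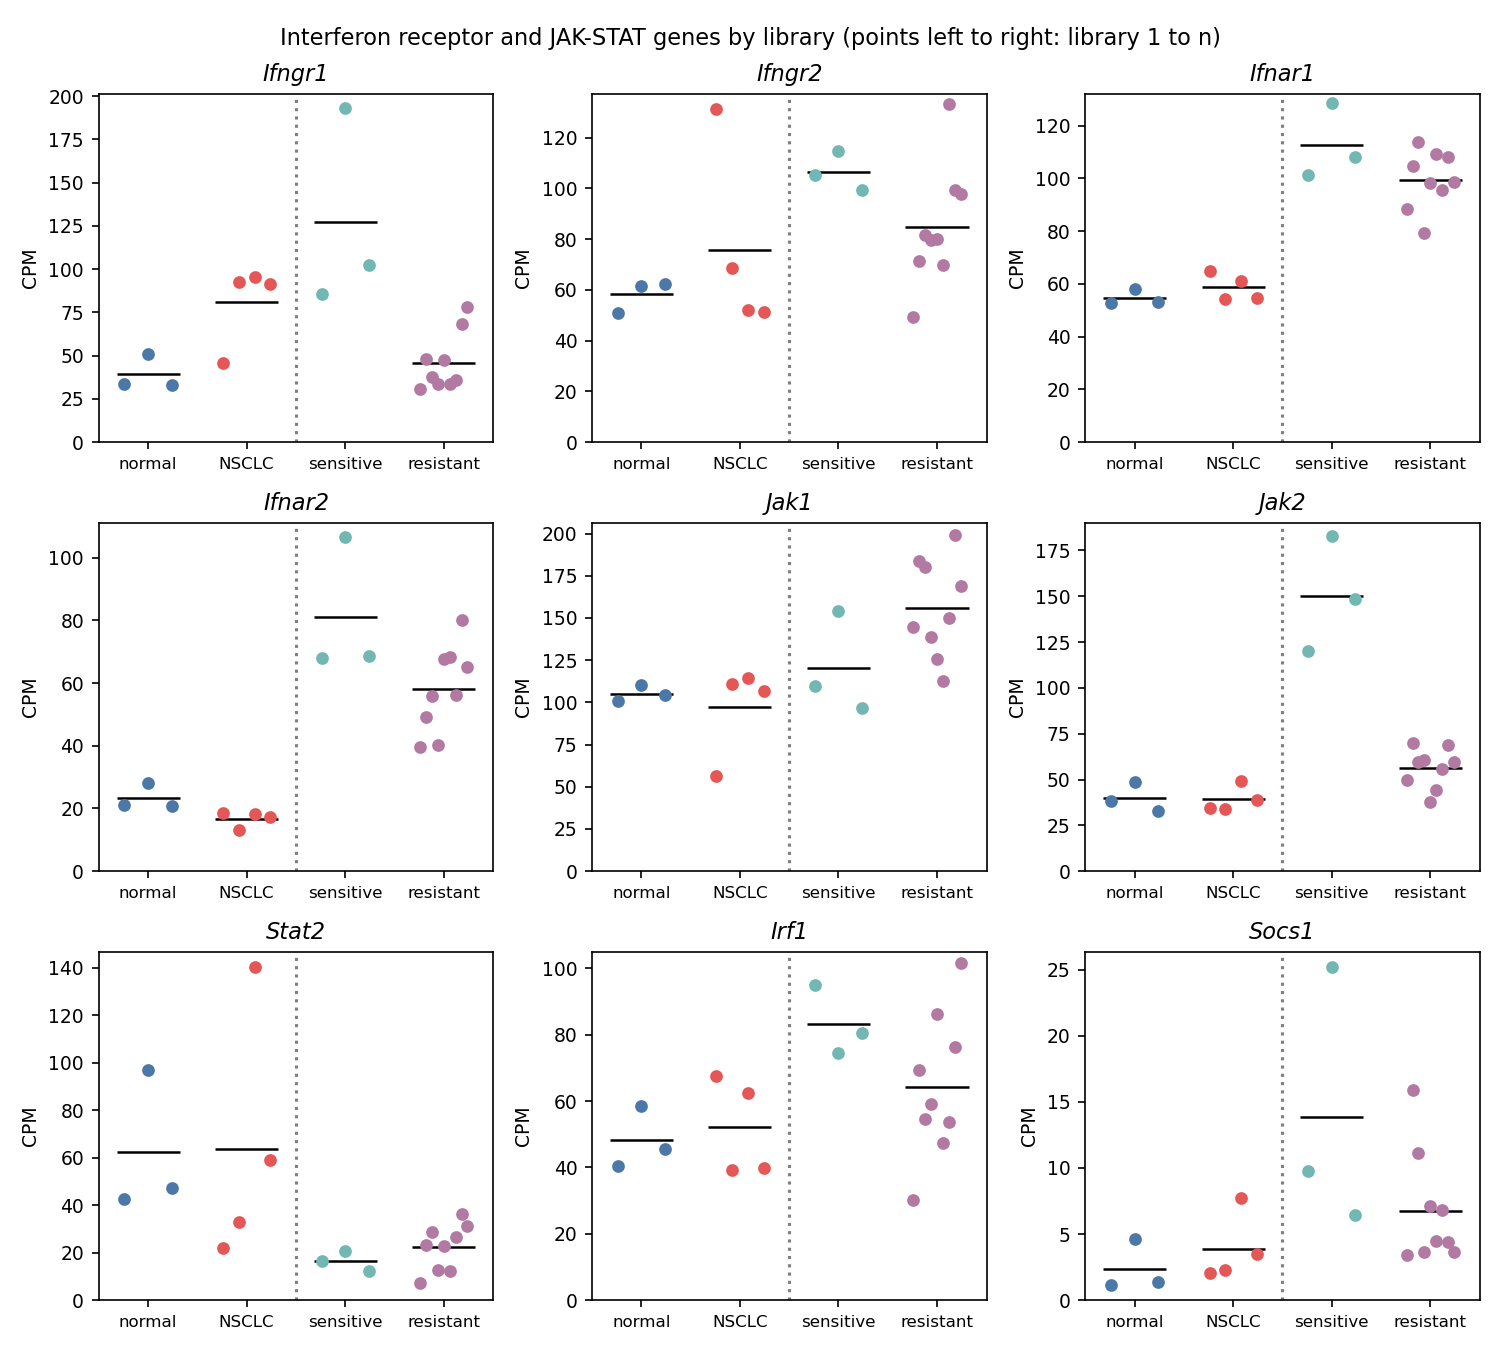
Each point is the CPM of 1 library for 1 of the 9 genes, in normal, NSCLC, sensitive and resistant organoids, with a line at the group mean and a linear axis from 0. The dotted line separates the tables, which were scaled separately. All 9 resistant libraries lie below the 3 sensitive libraries for Ifngr1 and for Jak2.

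**Figure D2:**
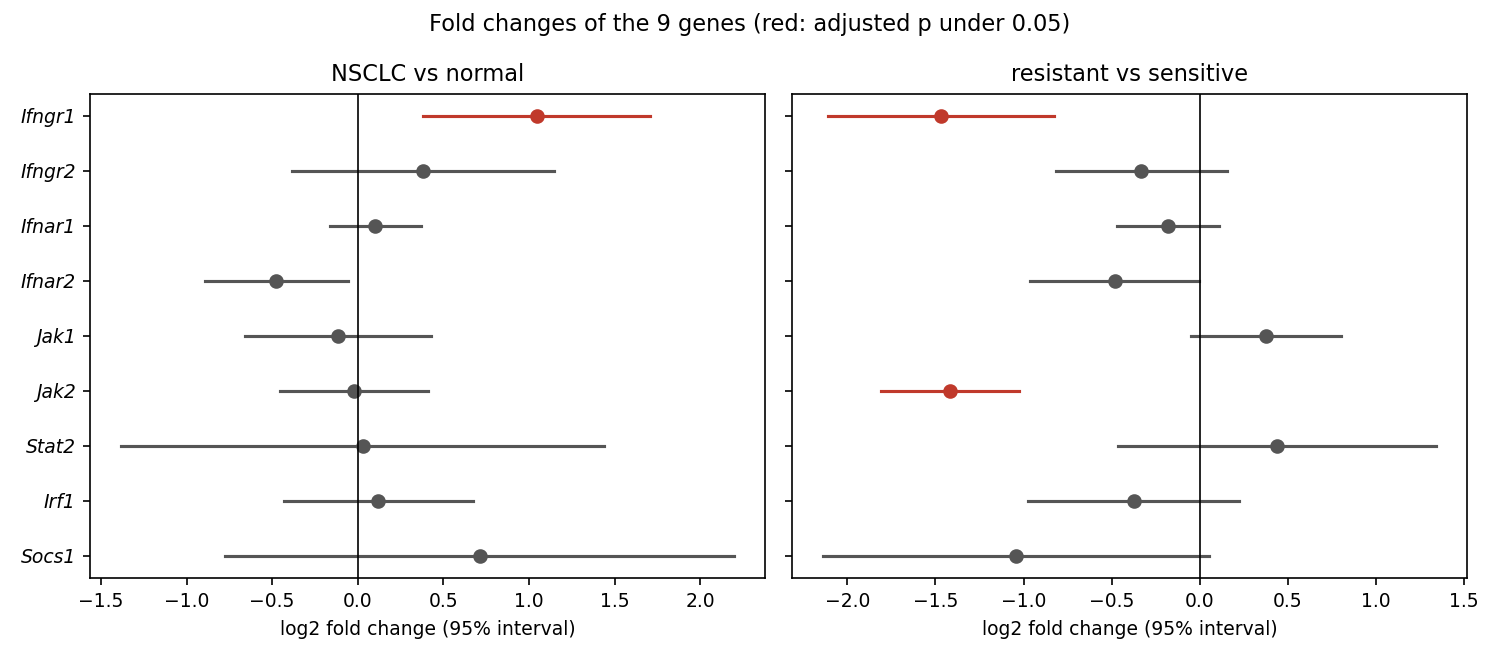
Log2 fold changes of the 9 genes with 95% intervals from edgeR's quasi-likelihood test, for NSCLC against normal (left) and resistant against sensitive (right), red where the adjusted p was under 0.05. Ifngr1 is above 0 on the left and below 0 on the right, and Jak2 is near 0 on the left (-0.02) and at -1.42 on the right.

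Ifngr1 (ENSMUSG00000020009, chromosome 10 from 19591949 to 19610229, plus strand, mm10) stood at 33.7, 51.2 and 33.3 CPM in normal libraries 1 to 3. In NSCLC libraries 1 to 4 it stood at 45.6, 92.8, 95.3 and 91.4 CPM. NSCLC library 1 was low and lay below normal library 2, so the groups overlapped, while the other 3 NSCLC libraries lay close together and above every normal library. Ifngr1 rose 2.06-fold in NSCLC (log2 fold change 1.04 ± 0.29 SE, 95% interval 0.38 to 1.71, n = 3 and 4, edgeR adjusted p = 0.0157). Without normal library 1 the value was 0.96 with an adjusted p of 0.0613, and without normal library 3 it was 0.95 with 0.0651. The call was thus lost with either of them left out, at a similar fold change. Genes called higher over the whole table also fell, from 5672 to 4759 without normal library 1 and 4490 without normal library 3. In the authors' deposited table the log2 fold change of Ifngr1 was 1.01 with an adjusted p of 0.0051. Macrophage and myeloid markers went the other way, with 11 of 14 lower and 2 higher in NSCLC and a summed level of 1613 to 2856 CPM in normal against 94.0 to 171 CPM in NSCLC. Fibroblast markers were lower too, 8 of 8, at 59.5 to 318 CPM in normal and 0.295 to 0.691 CPM in NSCLC. So were 5 of 6 alveolar type 2 and lung markers (49953 to 57502 CPM against 7005 to 13473 CPM). Of the epithelial markers 5 of 5 were higher in NSCLC (1657 to 1880 CPM in normal), and the part of these markers in the rise of Ifngr1 was not tested.

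In the second table Ifngr1 stood at 85.5, 193 and 103 CPM in sensitive libraries 1 to 3. The 9 resistant libraries ran from 30.9 CPM to 78.1 CPM with a median of 37.4 CPM. Sensitive library 2 was far above the other sensitive libraries, and resistant libraries 8 and 9, at 68.3 and 78.1 CPM, were the highest of their group without reaching the sensitive range. Ifngr1 fell 2.76-fold in resistant organoids (log2 fold change -1.47 ± 0.30 SE, 95% interval -2.11 to -0.83, n = 3 and 9, edgeR adjusted p = 0.00225). Without sensitive library 2 the log2 fold change was -1.03 (adjusted p = 0.0305), and without resistant libraries 6, 8 and 9 it was -1.68 (adjusted p = 9.13e-04).

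Myeloid markers moved with this fall. Of the 14 macrophage and myeloid markers 9 were lower in resistant organoids and 0 higher, none was at 0 in either group, and their summed level was 3167, 6574 and 2882 CPM in sensitive libraries 1 to 3 against 494 to 1663 CPM in resistant libraries. Sensitive library 2 was thus the highest in myeloid markers and in Ifngr1. Resistant library 4 had the most myeloid marker RNA of its group, at 1663 CPM, and 33.9 CPM of Ifngr1. Resistant libraries 9 and 8 came next in myeloid marker RNA, at 1276 and 910 CPM, and were the highest of their group in Ifngr1 and in epithelial markers (2175 and 1760 CPM). Epithelial markers also moved, with 4 of 5 lower (5035 to 6700 CPM against 294 to 2175 CPM), and fibroblast markers went the other way, with 6 of 7 tested higher (11.2 to 33.9 CPM against 43.7 to 899 CPM). The part of these cell type markers in the result was not tested.

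**Figure D3:**
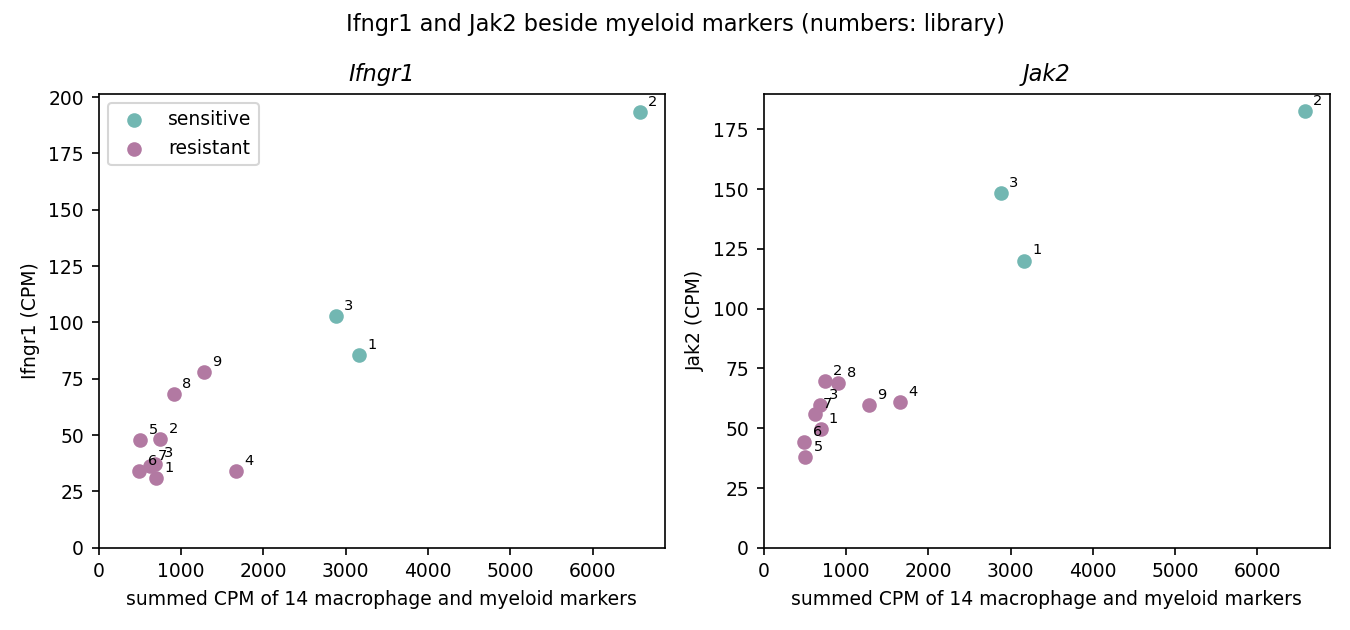
CPM of Ifngr1 (left) and Jak2 (right) in each sensitive and resistant library against the summed CPM of 14 macrophage and myeloid markers, with the library number beside each point and both axes linear from 0. The 3 sensitive libraries are highest on both axes, from 2882 CPM of marker RNA upward, and no resistant library exceeds 1663 CPM.

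Ifngr2 (chromosome 16 from 91547072 to 91565623, plus strand) encodes the receptor chain that carries JAK2. It stood at 50.8, 61.7 and 62.3 CPM in the normal libraries and at 131, 68.6, 52.0 and 51.2 CPM in the NSCLC libraries. NSCLC library 1, the one low in Ifngr1, was here the highest, and the groups overlapped (log2 fold change 0.38 ± 0.33 SE, 95% interval -0.39 to 1.14, edgeR adjusted p = 0.368). The sign rested on that library, since the log2 fold change was -0.07 without it. In the second table Ifngr2 was 105, 115 and 99.5 CPM in sensitive libraries and ran from 49.4 CPM (library 1) over a median of 80.2 CPM to 133 CPM (library 7) in resistant libraries. Library 7 lay above the sensitive range and the other 8 resistant libraries below it (log2 fold change -0.33 ± 0.22 SE, 95% interval -0.82 to 0.15, edgeR adjusted p = 0.261).

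The chains of the interferon gamma receptor were set against each other within each library, as the ratio of Ifngr1 to Ifngr2 counts per kb of exon. This ratio and the 2 below were chosen after the values were seen. Their p-values are exact two-sided permutation tests over libraries with adjustment over the 6 ratios tested, which does not cover that choice. Ifngr1 and Jak2 alone already separated sensitive from resistant libraries, so p-values of ratios that hold them add no support to those calls. The ratio of Ifngr1 to Ifngr2 was 1.07, 2.23 and 1.37 in sensitive libraries. In resistant libraries it ran from 0.360 to 1.06 with a median of 0.787. The groups did not overlap, though sensitive library 1 and the highest resistant library nearly met (difference of mean log2 ratios -1.07, exact p = 0.00909, which is the lowest value possible with 220 regroupings, adjusted p = 0.0273). In the first table the ratio was 0.706 to 1.10 in normal libraries and 0.460 in NSCLC library 1, against 1.79, 2.43 and 2.36 in NSCLC libraries 2 to 4. NSCLC library 1 lay below all normal libraries and the other 3 above them (difference 0.74, exact p = 0.286, adjusted p = 0.343, n = 3 and 4).

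Ifnar1 (chromosome 16 from 91485238 to 91507441, plus strand), the chain that carries TYK2, varied least of the 9 genes between the libraries of the NSCLC and resistant groups. It stood at 52.7, 58.2 and 53.0 CPM in normal and at 64.9, 54.2, 61.1 and 54.5 CPM in NSCLC libraries (log2 fold change 0.10 ± 0.11 SE, 95% interval -0.16 to 0.37, edgeR adjusted p = 0.481). Sensitive libraries held 101, 128 and 108 CPM and resistant libraries 79.4 to 114 CPM with a median of 98.6 CPM (log2 fold change -0.18 ± 0.13 SE, 95% interval -0.47 to 0.11, edgeR adjusted p = 0.310). The groups overlapped in both tables.

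Ifnar2 (chromosome 16 from 91372783 to 91405589, plus strand), the chain that carries JAK1, stood at 21.1, 28.1 and 20.7 CPM in normal libraries and at 18.5, 13.2, 18.2 and 17.1 CPM in NSCLC libraries. Every NSCLC library lay below every normal library, and the value just missed the threshold (log2 fold change -0.48 ± 0.18 SE, 95% interval -0.89 to -0.06, edgeR adjusted p = 0.0555). It passed with DESeq2 (-0.51, adjusted p = 0.0369) and without NSCLC library 1 (-0.57, adjusted p = 0.0375), and in the authors' deposited table it was -0.51 with an adjusted p of 0.0379. Ifnar2 was 68.1, 107 and 68.8 CPM in sensitive libraries and 39.7 to 80.1 CPM with a median of 56.0 CPM in resistant libraries. Resistant library 8 lay above sensitive libraries 1 and 3 and resistant library 6 just above library 1, so the groups overlapped (log2 fold change -0.48 ± 0.22 SE, 95% interval -0.96 to 0.00, edgeR adjusted p = 0.103). An unnamed gene model on the same strand, Gm21970, shares 9.46% of the exonic bases of Ifnar2, and how reads in that stretch were assigned is not given here.

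The ratio of Ifnar1 to Ifnar2 per kb ran from 1.16 to 1.44 in normal libraries and from 1.78 to 2.31 in NSCLC libraries. The groups did not overlap (difference of mean log2 ratios 0.57, exact permutation p = 0.0571, which is the lowest value possible with 35 regroupings, adjusted p = 0.114), so this design could not reach 0.05. In resistant libraries it ran from 0.755 to 1.25, and in sensitive libraries from 0.675 to 0.882 (difference 0.31, exact permutation p = 0.109, adjusted p = 0.164).

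Jak1 (chromosome 4 from 101152367 to 101265282, minus strand), the kinase shared by both receptors, stood at 101, 110 and 104 CPM in normal libraries. NSCLC library 1 held 56.1 CPM, and NSCLC libraries 2 to 4 held 111, 114 and 107 CPM. NSCLC library 1 alone lay below the normal libraries (log2 fold change -0.12 ± 0.24 SE, 95% interval -0.66 to 0.43, edgeR adjusted p = 0.703), and without it the log2 fold change was 0.03. Jak1 was 110, 154 and 96.7 CPM in sensitive libraries and 113 to 199 CPM with a median of 150 CPM in resistant libraries. Sensitive library 2 lay inside the resistant range and the other 2 just below it (log2 fold change 0.38 ± 0.20 SE, 95% interval -0.05 to 0.80, edgeR adjusted p = 0.149).

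Jak2 (ENSMUSG00000024789, chromosome 19 from 29251828 to 29313080, plus strand), the kinase carried by IFNGR2 and by the receptors of erythropoietin, growth hormone and several colony-stimulating factors, did not pass in NSCLC. It stood at 38.2, 48.4 and 32.6 CPM in normal and at 34.4, 34.2, 49.3 and 38.9 CPM in NSCLC libraries (log2 fold change -0.02 ± 0.19 SE, 95% interval -0.45 to 0.41, edgeR adjusted p = 0.938). In sensitive libraries it stood at 120, 183 and 148 CPM. The 9 resistant libraries ran from 37.8 CPM to 69.8 CPM with a median of 59.6 CPM, and even the highest of them lay well below the lowest sensitive library. Jak2 fell 2.67-fold in resistant organoids (log2 fold change -1.42 ± 0.18 SE, 95% interval -1.81 to -1.03, n = 3 and 9, edgeR adjusted p = 1.12e-04), the smallest adjusted p of the 9 genes in either comparison. Without resistant libraries 6, 8 and 9 it was -1.42 (adjusted p = 5.12e-04). The myeloid and epithelial markers given with Ifngr1 fell over the same libraries, and sensitive library 2, the highest in myeloid markers, was also the highest in Jak2. Sensitive library 3 held less myeloid marker RNA than sensitive library 1 (2882 against 3167 CPM) and more Jak2. Resistant library 4, the highest of its group in myeloid markers (1663 CPM), held 60.9 CPM of Jak2. Resistant library 2, with 746 CPM of myeloid markers, held the most Jak2 of its group. The part of these markers in the result was not tested. Without sensitive library 2 the log2 fold change was -1.25 (adjusted p = 0.00127).

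The ratio of Jak1 to Jak2 per kb was the clearest separation among the 3 ratios. It ran from 0.454 to 0.635 with a median of 0.588 in sensitive libraries, so Jak2 was the more abundant per kb in all 3. In resistant libraries it ran from 1.59 to 2.32 with a median of 1.97, so Jak1 was the more abundant in all 9. The difference of mean log2 ratios was 1.80 (exact permutation p = 0.00909, again the lowest possible, adjusted p = 0.0273). Normal and NSCLC libraries overlapped at 1.59 to 2.23 and 1.14 to 2.25 (difference -0.15, exact permutation p = 0.800).

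**Figure D4:**
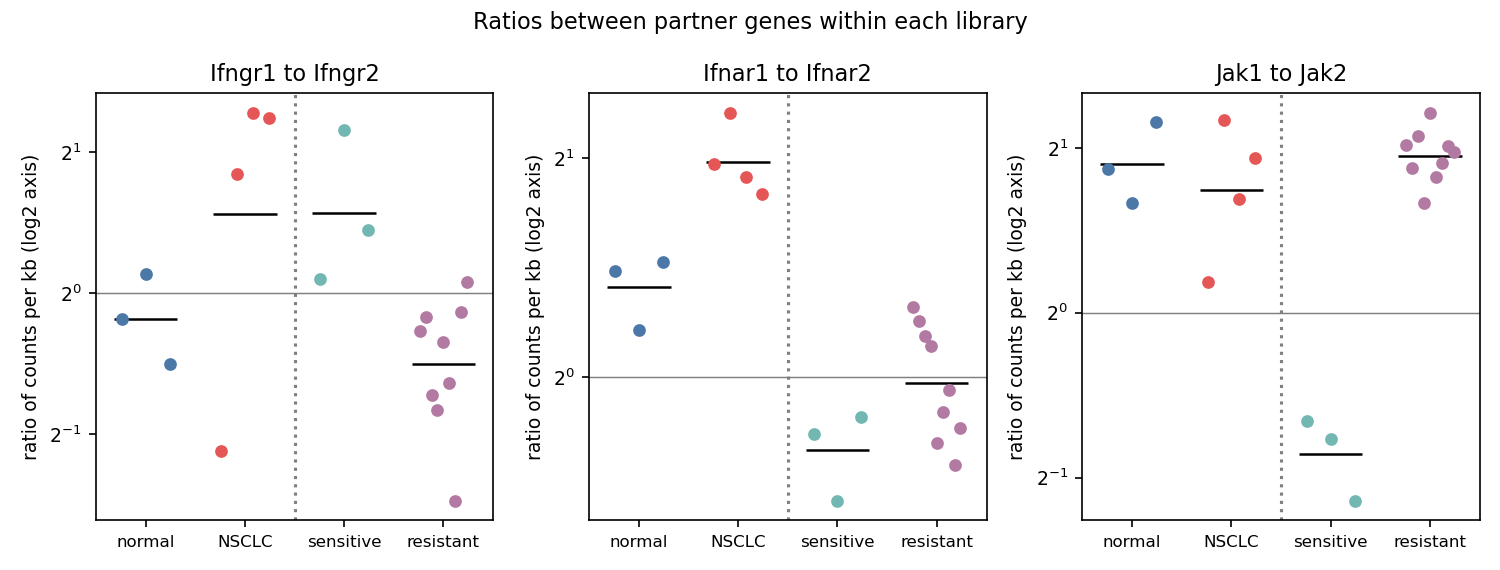
Ratio of counts per kb of exon within each library for Ifngr1 to Ifngr2, Ifnar1 to Ifnar2 and Jak1 to Jak2, on a log2 axis with a line at the mean log2 ratio of each group and a grey line at 1. For Jak1 to Jak2 the 3 sensitive libraries lie below 1 (0.454 to 0.635) and the 9 resistant libraries above it (1.59 to 2.32).

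The counts of the gene lists that follow stand against the shares of all genes given above (28.5% higher and 25.0% lower in NSCLC, 19.3% and 18.2% in resistant organoids). Among the other JAKs and STATs reported here, 2 of 6 tested were higher and 1 lower in NSCLC, and 1 of 7 was higher and 0 lower in resistant organoids. Tyk2, the kinase on IFNAR1, rose in NSCLC from 44.1, 42.5 and 48.1 CPM to 79.4, 67.8, 66.1 and 62.6 CPM, with no overlap (log2 fold change 0.62 ± 0.12 SE, edgeR adjusted p = 0.00338). Between sensitive and resistant organoids Tyk2 did not pass (0.63, adjusted p = 0.123). Stat5b, a STAT of growth hormone and cytokine signalling, fell in NSCLC from 27.8 ± 1.53 to 15.7 ± 4.22 CPM (SD; log2 fold change -0.83, edgeR adjusted p = 0.0107). Jak3, the kinase of receptors with the common gamma chain, passed upward in both comparisons (0.52 with adjusted p = 0.0258 in NSCLC, 1.89 with 0.0305 in resistant), but not when any 1 sensitive library was left out (adjusted p 0.0592 to 0.110), nor without any 1 normal library (0.0581 to 0.0947).

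Stat2 (chromosome 10 from 128270559 to 128292849, plus strand), a STAT of the type I and type III interferon pathways, varied more between the libraries of a group than between groups. Normal libraries held 42.7, 96.8 and 47.4 CPM and NSCLC libraries 21.9, 33.1, 140 and 58.8 CPM. NSCLC library 3 held 6.41 times as much as NSCLC library 1, and normal library 2 was the highest of its group. No difference between groups could be resolved at that spread (log2 fold change 0.03 ± 0.61 SE, 95% interval -1.38 to 1.44, edgeR adjusted p = 0.973), and the sign was reversed without NSCLC library 3 (-0.73). Stat2 was 16.7, 20.5 and 12.1 CPM in sensitive libraries and 7.07 to 36.2 CPM with a median of 23.3 CPM in resistant libraries. Resistant libraries 2, 3, 5, 7, 8 and 9 lay above the sensitive range, library 1 below it and libraries 4 and 6 within it (log2 fold change 0.44 ± 0.42 SE, 95% interval -0.47 to 1.34, edgeR adjusted p = 0.431).

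Irf9, which encodes the partner of STAT2 that binds ISREs, was high in the same NSCLC libraries. It stood at 22.4, 35.8 and 22.4 CPM in normal and 13.6, 15.7, 91.8 and 44.3 CPM in NSCLC libraries (edgeR adjusted p = 0.443). NSCLC library 3 was thus the highest of all 7 libraries in Stat2 and Irf9, NSCLC library 4 the second of its group, and NSCLC libraries 1 and 2 lay below every normal library in both genes. The mean log2 CPM of the 41 type I target genes tested was also highest in NSCLC library 3 and lowest in NSCLC libraries 1 and 2, at 2.43, 4.47 and 2.76 in normal libraries and 1.42, 1.04, 4.92 and 3.23 in NSCLC libraries. Irf9 did not pass in resistant organoids (adjusted p = 0.303). In the second table the mean over 40 type I targets was 3.44, 3.34 and 2.61 in sensitive libraries 1 to 3. Resistant library 8, the highest in Stat2 at 36.2 CPM, had a mean of 2.39, below every sensitive library. Resistant library 3 held 28.5 CPM of Stat2 and had the lowest mean. Resistant libraries 4, 7 and 9 lay within the sensitive range, at 2.62, 2.78 and 2.89, and the others lay below it.

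**Figure D5:**
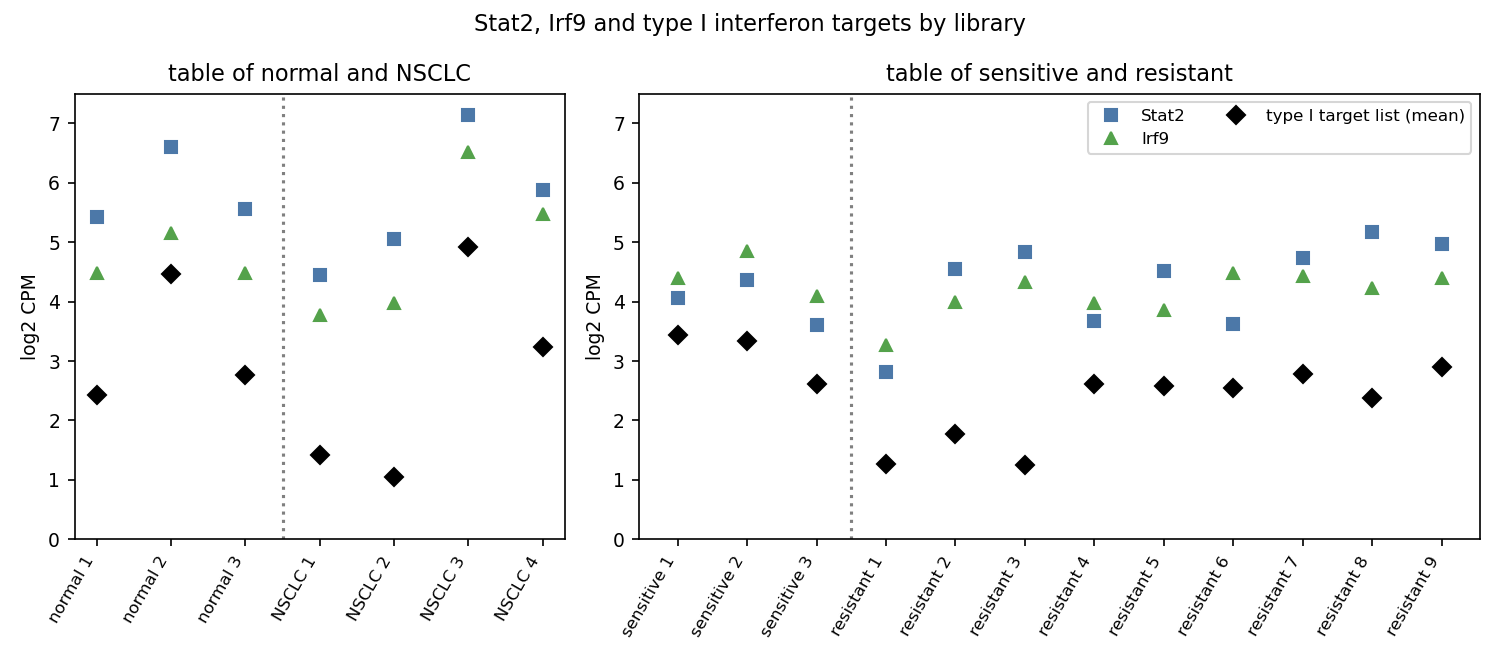
Log2 CPM of Stat2 and Irf9 and the mean log2 CPM of the tested type I interferon target genes in each library, with the tables in separate panels and a dotted line between groups. In the left panel all 3 series are highest in NSCLC library 3, and Stat2 and the targets are next highest in normal library 2. In the right panel 6 of 9 resistant libraries are above the sensitive libraries in Stat2, library 8 the highest. In the mean of the targets no resistant library is above the sensitive range, and library 8 is below every sensitive library.

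Irf1 (chromosome 11 from 53770014 to 53778374, plus strand) encodes a transcription factor induced by interferon gamma that drives genes of MHC class I presentation, and it did not pass in either comparison. It stood at 40.4, 58.6 and 45.5 CPM in normal and at 67.7, 39.2, 62.5 and 39.9 CPM in NSCLC libraries (log2 fold change 0.12 ± 0.24 SE, 95% interval -0.43 to 0.67, edgeR adjusted p = 0.698). NSCLC libraries 1 and 3 lay above the normal range, and NSCLC libraries 2 and 4 just below it. Sensitive libraries held 94.9, 74.5 and 80.4 CPM, and resistant libraries 30.1 CPM (library 1) to 101 CPM (library 9) with a median of 59.2 CPM. Resistant libraries 5, 8 and 9 reached the sensitive range (log2 fold change -0.37 ± 0.28 SE, 95% interval -0.97 to 0.23, edgeR adjusted p = 0.306).

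Among the other interferon regulatory factors, 1 of 7 tested was higher in NSCLC and 0 lower, and 2 of 8 were lower in resistant organoids and 0 higher. Irf8, a factor of myeloid and B cells that is also induced by interferon gamma, rose in NSCLC from 3.49 ± 2.38 to 62.7 ± 16.7 CPM (SD, n = 3 and 4; log2 fold change 4.16 ± 0.54 SE, edgeR adjusted p = 4.02e-04), while the myeloid markers given above were lower there. In resistant organoids Irf8 fell from 49.0 ± 18.0 to 20.9 ± 8.09 CPM (n = 3 and 9; log2 fold change -1.23 ± 0.35 SE, edgeR adjusted p = 0.0138) and Irf5, a factor of Toll-like receptor signalling, from 16.8 ± 11.9 to 5.17 ± 1.21 CPM (edgeR adjusted p = 0.00229). Both calls were lost without sensitive library 2 (adjusted p = 0.114 for Irf8 and 0.0501 for Irf5), the library highest in myeloid markers.

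Socs1 (chromosome 16 from 10782240 to 10785536, minus strand) encodes the feedback inhibitor of the JAKs. Its mean per kb of exon was the lowest of the 9 genes in normal, NSCLC and resistant organoids. In resistant organoids its range, 1.18 to 5.46 CPM per kb, overlapped that of Stat2, 1.19 to 6.11 CPM per kb. Socs1 stood at 1.17, 4.61 and 1.34 CPM in normal and at 2.09, 2.30, 7.69 and 3.51 CPM in NSCLC libraries. Normal library 2 and NSCLC library 3, the ones high in Stat2 and the type I targets, were again the highest of their groups (log2 fold change 0.71 ± 0.65 SE, 95% interval -0.77 to 2.20, edgeR adjusted p = 0.383). Sensitive libraries held 9.80, 25.2 and 6.48 CPM and resistant libraries 3.42 to 15.9 CPM with a median of 4.44 CPM. Resistant libraries 2, 3, 5 and 7, at 15.9, 11.1, 7.10 and 6.86 CPM, lay within the sensitive range and the other 5 below it (log2 fold change -1.04 ± 0.51 SE, 95% interval -2.14 to 0.05, edgeR adjusted p = 0.122). Without resistant library 2 the value was -1.31 and passed, with an adjusted p of 0.0381. That library also held the most RNA of T and NK cell markers (26.7 CPM against 0.925 to 7.77 CPM in the other resistant libraries and 6.21 to 14.1 CPM in sensitive libraries), of which 0 of 6 tested passed in either direction; their part in the value was not tested.

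Of 19 other negative regulators of JAK-STAT signalling, all tested, 3 were higher and 4 lower in NSCLC, and 4 were higher and 6 lower in resistant organoids. Both shares in NSCLC (15.8% and 21.1%) were below those of all genes, and in resistant organoids they were 21.1% and 31.6%. Socs2, an inhibitor of growth hormone signalling, fell in both tables, from 277 ± 40.2 to 49.0 ± 19.7 CPM in NSCLC (log2 fold change -2.50, edgeR adjusted p = 3.68e-04) and from 224 ± 16.3 to 76.8 ± 31.5 CPM in resistant organoids (-1.54, edgeR adjusted p = 0.00406). The PIAS proteins inhibit STATs and ligate SUMO. In NSCLC Pias4 rose from 36.3 ± 2.59 to 78.5 ± 17.0 CPM (edgeR adjusted p = 0.00119), Socs5, of the family of Socs1, rose from 40.9 ± 2.57 to 81.0 ± 18.8 CPM (edgeR adjusted p = 0.00287), and Pias1 fell from 100.1 ± 23.5 to 45.5 ± 6.97 CPM (edgeR adjusted p = 0.00135). In resistant organoids Pias3 rose from 17.5 ± 2.48 to 53.2 ± 23.2 CPM (edgeR adjusted p = 0.00500). Ptpn6, the phosphatase SHP-1 of blood cells, fell there from 46.0 ± 21.2 to 12.2 ± 5.29 CPM (edgeR adjusted p = 0.00202), with the myeloid markers, and Ptprk, a receptor phosphatase, from 110 ± 10.4 to 46.9 ± 10.5 CPM (edgeR adjusted p = 4.78e-04). Ptpn2, a phosphatase that acts on JAK1, did not pass in NSCLC (adjusted p = 0.0623) or in resistant organoids (adjusted p = 0.0807). Without any 1 sensitive library the number of higher regulators was 1, and without sensitive library 1 the number of lower ones was 3. Over the whole table, genes higher fell from 2768 to 1800, 1921 and 1765 without sensitive libraries 1, 2 and 3. Genes lower fell from 2612 to 1869 without sensitive library 1.

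Among the type III interferon and related class II receptors, 2 of 5 tested were higher and 1 lower in NSCLC, and 1 of 6 was higher and 3 lower in resistant organoids. Il22ra1, the interleukin-22 receptor chain of epithelia, rose in NSCLC from 0.786 ± 0.366 to 19.96 ± 10.1 CPM (log2 fold change 4.66, edgeR adjusted p = 4.85e-04) and fell in resistant organoids from 27.0 ± 10.5 to 1.29 ± 1.27 CPM (-4.38, edgeR adjusted p = 4.33e-04). It thus moved with the epithelial markers in both tables. Il20rb, a chain of the receptors of interleukin-20 and its relatives, rose in NSCLC from 2.41 ± 0.241 to 5.25 ± 1.06 CPM (edgeR adjusted p = 0.00692), and Il20ra, its partner chain, rose in resistant organoids from 0.0386 ± 0.0335 to 1.096 ± 0.835 CPM (edgeR adjusted p = 0.00394). Il10rb, the chain shared by the receptors of interleukin-10, interleukin-22 and interferon lambda, fell in resistant organoids from 76.4 ± 18.1 to 24.3 ± 7.18 CPM (-1.65, edgeR adjusted p = 4.03e-04). Il10ra, the interleukin-10 receptor chain of blood cells, fell from 1.56 ± 1.31 to 0.0598 ± 0.0277 CPM in NSCLC (edgeR adjusted p = 0.00254) and from 19.1 ± 13.9 to 5.01 ± 2.58 CPM in resistant organoids (edgeR adjusted p = 0.00750, and 0.122 without sensitive library 2), on the side of the myeloid markers in both. Of the other receptors that signal through JAKs, 2 of 17 were higher and 8 lower in NSCLC, and 3 of 19 were higher and 8 lower in resistant organoids. Epor, the erythropoietin receptor, which uses JAK2, rose in NSCLC from 2.39 ± 0.666 to 17.4 ± 2.501 CPM (edgeR adjusted p = 5.84e-05). Ghr, the growth hormone receptor, which also uses JAK2, fell there from 7.28 ± 3.82 to 1.17 ± 0.334 CPM (edgeR adjusted p = 0.00109), as did Il6ra, the interleukin-6 receptor, from 10.4 ± 2.56 to 3.54 ± 0.612 CPM (edgeR adjusted p = 0.00125), and Csf3r, the G-CSF receptor of myeloid cells, from 1.03 ± 0.855 to 0.00588 ± 0.00783 CPM (edgeR adjusted p = 8.86e-04). In resistant organoids the receptor chains for GM-CSF fell together with Jak2 and the myeloid markers: Csf2rb from 202 ± 141 to 24.5 ± 14.3 CPM (edgeR adjusted p = 5.76e-04) and Csf2ra from 43.0 ± 23.9 to 10.1 ± 3.73 CPM (edgeR adjusted p = 4.77e-04). Il2rg, the common gamma chain of blood cells, fell from 42.3 ± 19.1 to 7.45 ± 2.97 CPM (edgeR adjusted p = 3.01e-04), and Prlr, the prolactin receptor, from 2.63 ± 0.358 to 0.181 ± 0.130 CPM (edgeR adjusted p = 6.36e-04). Reads were few for Il20ra in sensitive libraries (0 to 0.0609 CPM), Csf3r in NSCLC libraries (0 to 0.0165 CPM) and Prlr in resistant libraries (0 to 0.370 CPM).

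RNA of the interferons themselves was near absent. Of 21 interferon genes, 8 had 0 counts over all 7 libraries of the first table and 15 had 0 counts over all 12 libraries of the second. Ifng had 3 counts in the first table and 14 in the second, with at most 3 in any library, and Ifnb1 had 1 and 0. The most counted interferon was Ifnz, with 160 counts over the first table and 37 over the second. Ifnz alone passed the filter on low counts, in the first table, where it did not pass the test (adjusted p = 0.168). In the first table Ifnl3, an interferon lambda, had 41 counts in all, 34 of them in NSCLC library 3. Ifnl2, another interferon lambda, had 34 counts in all, 25 of them in the same library. NSCLC library 3 was also the highest in Stat2, Irf9 and the mean of the type I targets, and a link was not tested.

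The target genes were counted by the interferon type that mostly induces them. Of 30 type II targets, 1 was higher and 9 were lower in NSCLC with a median log2 fold change of -1.63, against 0.11 over all genes. The share lower, 30.0%, was near the 25.0% of all genes. Ifngr1 was higher in the same comparison. Icam1, an adhesion molecule, fell from 1244 ± 178 to 317 ± 48.1 CPM (edgeR adjusted p = 6.67e-05), Ciita, the activator of MHC class II genes, from 2.59 ± 0.633 to 0.809 ± 0.129 CPM (edgeR adjusted p = 0.00205), and Tgtp1, an interferon-induced GTPase, from 6.04 ± 5.45 to 0.308 ± 0.183 CPM (edgeR adjusted p = 0.00234). The 1 higher was Ido1, an enzyme gene of tryptophan breakdown, with 0 counts in the 3 normal libraries and 22 to 38 in the deeper NSCLC libraries (0.153 to 0.255 CPM, edgeR adjusted p = 0.00342). With the NSCLC libraries thinned to the normal depth, 0 type II targets were higher. The number of lower type II targets was 3 without normal library 2 and 14 without NSCLC library 3. Of 41 type I targets, 1 was higher (Isg20, an exonuclease gene, 10.4 ± 0.521 to 39.5 ± 19.6 CPM, edgeR adjusted p = 0.00392) and 1 lower (Trafd1, 39.8 ± 10.6 to 22.6 ± 7.23 CPM, edgeR adjusted p = 0.0322) in NSCLC, with a median of -0.06. Both shares, 2.44%, were below those of all genes. The groups overlapped for Trafd1, and it did not pass when normal library 2, normal library 3, NSCLC library 2 or NSCLC library 4 was left out (adjusted p 0.0510 to 0.111), while the number of lower type I targets was 7 without NSCLC library 3, the library high in Stat2. Myeloid, fibroblast and alveolar type 2 markers were lower in NSCLC, as given with Ifngr1. Normal library 2, on which the type II count leaned, held 318 CPM of fibroblast markers, where normal libraries 1 and 3 held 60.5 and 59.5 CPM, and the most myeloid marker RNA of its group (2856 CPM). The part of these markers in the counts was not tested.

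In resistant organoids 0 of 30 type II targets were higher and 5 lower (median log2 fold change -0.47, against 0.06 over all genes), and 2 of 40 type I targets were higher and 12 lower (median -0.58). The share of type II targets that were lower, 16.7%, was near the 18.2% of all genes, and that of type I targets was 30.0%. Gbp6, a guanylate-binding protein gene, fell from 14.4 ± 3.50 to 3.72 ± 1.69 CPM (edgeR adjusted p = 0.00476). Icam1 passed at 318 ± 44.8 against 108 ± 63.3 CPM (edgeR adjusted p = 0.0179), but not without sensitive library 1 (0.0691) or 2 (0.0526). Gbp8, of the same family as Gbp6, passed at 3.03 ± 0.353 against 0.901 ± 0.754 CPM (edgeR adjusted p = 0.0207), but not without any 1 sensitive library (0.0505 to 0.0700). Cd274, the gene of the checkpoint ligand PD-L1, passed with overlapping groups (edgeR adjusted p = 0.0344), but not without sensitive library 1 (0.0637) or 2 (0.231). Of the type I targets, Oas1a, an enzyme gene of antiviral defence, fell from 13.3 ± 5.41 to 1.94 ± 0.988 CPM (edgeR adjusted p = 5.94e-04), Oas1g, a close relative of it that may share reads, from 6.45 ± 2.72 to 0.635 ± 0.465 CPM (edgeR adjusted p = 6.36e-04), and Parp14 from 48.9 ± 19.1 to 11.6 ± 6.66 CPM (edgeR adjusted p = 0.00425). Ifit2, also of antiviral defence, rose from 2.53 ± 0.251 to 10.96 ± 4.07 CPM (edgeR adjusted p = 0.00178). The counts fell without single sensitive libraries as given next, and so did the count over all genes. Genes lower over the whole table numbered 2612 with all libraries, and 1869, 1859 and 1938 without sensitive libraries 1, 2 and 3. The number of lower type I targets was 4 without sensitive library 1 and 5 without library 2, and of lower type II targets 1 without library 1, 1 without library 2 and 3 without library 3. With resistant libraries 1 to 3 as the only resistant ones, a choice made after the data were seen, the numbers were greater, at 21 lower type I and 13 lower type II targets. The mean log2 CPM over the type II list ran from 3.72 to 3.92 in sensitive libraries and from 1.57 to 4.26 in resistant libraries, where libraries 1 and 3 were lowest and libraries 5, 7 and 9 lay above the sensitive range. Ifngr1 and Jak2 lay below the sensitive range in all 9 resistant libraries, those 3 included. Myeloid markers were lower over the same libraries, and their part was not tested.

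The 9 genes were then ordered within each group by level per kb of exon. In normal organoids the order ran from Ifngr2 at 15.5 CPM per kb, Jak1 at 14.5 and Ifngr1 at 13.8, over Irf1 at 12.1, Stat2 at 10.5, Ifnar1 at 9.20 and Jak2 at 7.90, to Ifnar2 at 6.998 and Socs1 at 0.816. Only the last 2 neighbours had ranges that did not overlap. In NSCLC Ifngr1 came first at 28.5 CPM per kb, followed by Ifngr2 at 20.1, Jak1 at 13.4, Irf1 at 13.2, Stat2 at 10.7, Ifnar1 at 9.88 and Jak2 at 7.79, and then, each with a range apart from its upper neighbour, Ifnar2 at 5.03 and Socs1 at 1.34. In sensitive organoids Ifngr1 and Jak2 were the first 2, at 44.7 and 29.9 CPM per kb, ahead of Ifngr2 at 28.3, Ifnar2 at 24.4, Irf1 at 20.9, Ifnar1 at 19.0 and Jak1 at 16.6, with Socs1 at 4.75 and Stat2 at 2.78 below, both with ranges apart from that of Jak1. In resistant organoids Ifngr2 at 22.5 and Jak1 at 21.6 came first, before Ifnar2 at 17.4, Ifnar1 at 16.8, Ifngr1 at 16.2 and Irf1 at 16.2, and Jak2 at 11.2 was the last before Stat2 at 3.77 and Socs1 at 2.31, both apart from Jak2. Neighbours not named as apart had overlapping ranges. Ifngr1 and Jak2, the first 2 in sensitive organoids, thus came after Ifngr2, Jak1, Ifnar2 and Ifnar1 in resistant organoids.

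Across the 9 resistant libraries the genes most like Ifngr1 in log2 CPM, among 9444 genes compared, were Ccdc88b (Pearson r = 0.958, Spearman rho = 0.917), Sorl1 (0.945 and 0.900) and Pag1 (0.942 and 0.883). Those most like Irf1 were Mmp12, a macrophage elastase gene (Pearson r = 0.918, Spearman rho = 0.933), Serpinf1 (0.890 and 0.850) and Clmp (0.882 and 0.833). With 9 libraries and 9444 genes such values are a description only, and the libraries differ in depth and in the cell type markers given above.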

How the data were processed

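The 9 genes, the lists and the tests were chosen with earlier results of these data known. RNA was sequenced as read pairs from stranded mRNA libraries, per the labels' protocols. The submitters' processing notes name STAR 2.6.0a, DESeq2 1.26.0 and mm10, while the tool that counted reads and the annotation it used are not given here. What the authors deposited for each pair of groups is a table of raw, whole-number read counts, as the values and headers show. Beside the counts, each holds log2 fold changes and adjusted p-values computed by the authors, printed only where credited to their deposited table. Another 19 columns, with scaled values per library, were not used. Reference gene names supplied 26857 missing symbols for normal and NSCLC organoids.

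Each table was fitted on its own with edgeR 4.0.16 in R 4.3.3. Low counts were removed with filterByExpr, libraries were scaled by TMM, and groups were compared with the quasi-likelihood test (glmQLFit and glmQLFTest) over all genes, with Benjamini-Hochberg adjustment and a threshold of 0.05. The script was tested on simulated counts. Standard errors are the log2 fold change over the square root of F. Log2 CPM for list means and likeness has a prior count of 2. Levels between genes were divided by exonic length from GENCODE on mm10. That length merges all annotated exons of a gene and can exceed the length of its transcripts. Ratios were tested with scipy 1.17.1 by exact two-sided permutation. No pair of libraries in a group agreed within counting noise. Resistant libraries 2 and 3 (Pearson r of log2 CPM 0.980) and libraries 8 and 9 (0.979) were the closest pairs of their group. The other resistant pairs had r of 0.898 to 0.964. Whether such pairs share a source is not given, and the tests count each library as separate.

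Named are the 9 genes, Irf9, Tyk2 and Ptpn2, up to 4 genes per list, taken by smallest adjusted p, and the 3 genes most like Ifngr1 and Irf1. A further gene is not reported here, and the counts of the lists are without it. Alternatives were DESeq2 1.42.0, RLE and upper quartile scaling, no filter on low counts, thinning of the deep NSCLC libraries to the normal depth, a replicate block, each library left out in turn, and resistant libraries 6, 8 and 9 left out together.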

Additional observations from a re-analysis of the deposited data

Results flagged for a closer look

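Among 24 groups of 4 to 10 libraries examined for the 9 genes and their 3 partners, 2 held a library far from the rest, both of them NSCLC library 1, and chance flags about 1 in 20 groups. Ifngr1 stood there at 45.6 CPM, where the nearest other NSCLC library held 91.4 CPM. Jak1 stood there at 56.1 CPM, where the nearest other NSCLC library held 107 CPM. The same library was the highest of its group in Ifngr2, at 131 CPM against 51.2 to 68.6 CPM.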

How the results depend on the processing

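In resistant organoids the calls of Ifngr1 and Jak2 kept their direction and their side of the threshold in all 19 alternatives, with log2 fold changes of -1.69 to -1.03 and -1.55 to -1.25. The call of Socs1 there was gained without resistant library 2 (-1.31), and its range with 1 library left out was -1.38 to -0.28. In NSCLC the number of members called was 2 with DESeq2, RLE scaling, upper quartile scaling or thinned NSCLC libraries, and ran from 0 to 2 with 1 library left out. Ifngr1 ran from 0.94 to 1.25 with 1 library left out and lost its call without normal library 1 or 3. Ifnar2 gained a call with DESeq2 (-0.51), RLE (-0.52), upper quartile scaling (-0.66) and thinning (-0.63), and ran from -0.57 to -0.35 with 1 library left out. Members that did not pass in NSCLC changed sign as follows, and the cause was not tested. Upper quartile scaling, which moved the median of all genes by -0.18, gave Ifnar1 -0.078, Stat2 -0.17 and Irf1 -0.057. DESeq2 gave Stat2 -0.0033 and RLE -0.014. Thinning gave Stat2 -0.10 and Irf1 -0.0042, and no filter on low counts gave Jak2 0.043. With 1 library left out the ranges were -0.067 to 0.51 for Ifngr2, -0.22 to 0.031 for Jak1, -0.16 to 0.12 for Jak2, -0.73 to 0.47 for Stat2, -0.071 to 0.26 for Irf1, -0.14 to 0.87 for Irf9 and -0.30 to 0.033 for the log2 ratio of Jak1 to Jak2. Replicate numbers showed no clear pairing of the libraries. Deviations of libraries with the same number had correlations of -0.02 to 0.02 in the first table and -0.09 to 0.15 in the second. Libraries with different numbers had correlations of -0.05 to 0.07 and -0.34 to 0.28, so the check could not exclude a pairing. A replicate block gave 8766 genes and 1 member called in NSCLC (9851 and 1 in the same libraries with no block) and 4105 genes and 2 members in resistant organoids (4871 and 2), and it turned Stat2 to -0.42 and Irf9 to -0.070 in NSCLC. With the block, 5 type II targets were lower in NSCLC (9 in all libraries), and 14 type II and 21 type I targets in resistant organoids (13 and 21 in the same libraries with no block, 5 and 12 in all libraries). The only resistant libraries in that block were 1 to 3, the lowest of their group in the mean of the type I targets. The wide intervals of Stat2 and Socs1 in NSCLC come with the spread between libraries, and Socs1 also has the fewest counts.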
